A study of Mus musculus with 34 samples.

Results

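The mitochondrial ribosomal protein genes are the 78 protein-coding genes whose symbols begin Mrpl or Mrps, out of 18548 genes in an RNA-seq table that covers 3 brain regions of Myt1l mutant mice. They were taken by symbol and gene type from the GENCODE M21 annotation of the mouse genome GRCm38, a rule that uses no measured value. Of the 78, 49 begin Mrpl and 29 begin Mrps. 51 are counted here with the large subunit and 27 with the small one. Mrps30 and Mrps18a carry small-subunit names but sit in the large subunit, and Mrps36 is counted with the small subunit by its name, although it is known as a component of the 2-oxoglutarate dehydrogenase complex. 46 are listed here with a bacterial homologue and 32 without one. Mrps18c alone of the Mrps18 paralogues was put in the first list, although paralogues are related by descent. The lists are thus a working division, and the second does not show that a bacterial relative is lacking. Below, a gene with no bacterial homologue is one placed in the second list. The samples were prefrontal cortex (PFC), hippocampus and striatum of male C57BL/6J mice at postnatal day 56, untreated, labelled either heterozygote for a Myt1l mutation (HT) or wild type (WT). There were 5 HT and 6 WT libraries of PFC, 5 HT and 6 WT libraries of hippocampus, and 6 HT and 6 WT libraries of striatum, 34 in all. The labels do not describe the allele, and they do not say that the libraries of a group came from separate animals, so p-values measure the spread between these libraries only.

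Mitochondria carry their own ribosomes, which translate the few membrane proteins of the respiratory chain and ATP synthase that are encoded in mitochondrial DNA. The ribosomal RNAs are mitochondrial products, but every protein of both subunits is encoded in the nucleus, made in the cytosol and imported. Neurons draw most of their ATP from oxidative phosphorylation, and inherited defects of mitochondrial ribosomal proteins in humans cause encephalopathies and cardiomyopathies. Myt1l, the gene named in the series, codes for a neuronal zinc finger protein that represses non-neuronal genes.

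The deposited values, named DESeq counts by the authors and not whole numbers, are called normalized counts here, and the libraries summed to between 25786041 and 29798959 of them. Region markers were highest in their own region. The mean log2 value of 8 hippocampal markers was between 11.2 and 11.5 in hippocampal libraries, and between 7.14 and 8.13 in the libraries of the other regions. That of 8 cortical markers was 11.6 to 11.8 in PFC and 10.3 to 10.6 in hippocampus, but spread from 8.67 to 10.36 in striatum. Their sum ran from 7104 to 18438.5 in striatal HT and from 7663 to 19496 in striatal WT libraries, with striatal WT replicate 1 at 15898. The part of this spread in the striatal comparisons was not tested. Choroid plexus markers differed widely among libraries: 6 of them summed to between 77.7 and 192.9 normalized counts in PFC, between 2095 and 85890 in hippocampus and between 1333 and 88786 in striatum. The sum of 8 oligodendrocyte markers was 91195 to 144125 in PFC, 140600.0 to 199634 in hippocampus and 229806 to 301664 in striatum, and that of 5 neuronal markers 181712 to 203952, 133186 to 147946 and 98024 to 121093. The part of choroid plexus or of any other cell type in the differences given below was not tested, and in bulk tissue fewer cells of a type cannot be told apart from less RNA per cell. The targeted gene itself, Myt1l, was not lower in HT libraries. On the log2 scale HT minus WT was 0.04 ± 0.08 in PFC, 0.15 ± 0.06 in hippocampus and 0.08 ± 0.07 in striatum (SE, limma adjusted p = 0.988, 0.719 and 0.915). Column codes recur across regions, and 1 of the 12 codes stands on HT libraries of hippocampus and striatum and on a WT library of PFC.

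All 78 genes were expressed in every library, at means between 119.4 (Mrpl23) and 1709 normalized counts (Mrpl3), and all 78 passed the filter on low values in each comparison. Per kilobase of transcript, on a scale of normalized counts per kb, the highest was Mrps33, a small-subunit protein with no bacterial homologue, at 1490.3 in PFC, 1511 in hippocampus and 1659 in striatum. Next came the large-subunit proteins Mrpl20 (1388 over the 34 libraries) and Mrpl42 (1379.8), the small-subunit protein Mrps21 (1378) and the large-subunit protein Mrpl30 (1127). Mrpl20, Mrpl42 and Mrps21 lie within 1 SD of each other in each region. The lowest levels per kb were those of Mrps35 (106.8), Mrpl47 (114.3), Mrps25 (130.0), Mrpl17 (139.1) and Mrpl1 (140.9). The lowest genes have annotated transcripts of 2846 to 6073 bases on average, against 446.5 to 774.7 for the highest, and the effect of the annotated length on these levels was not tested.

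**Figure D1:**
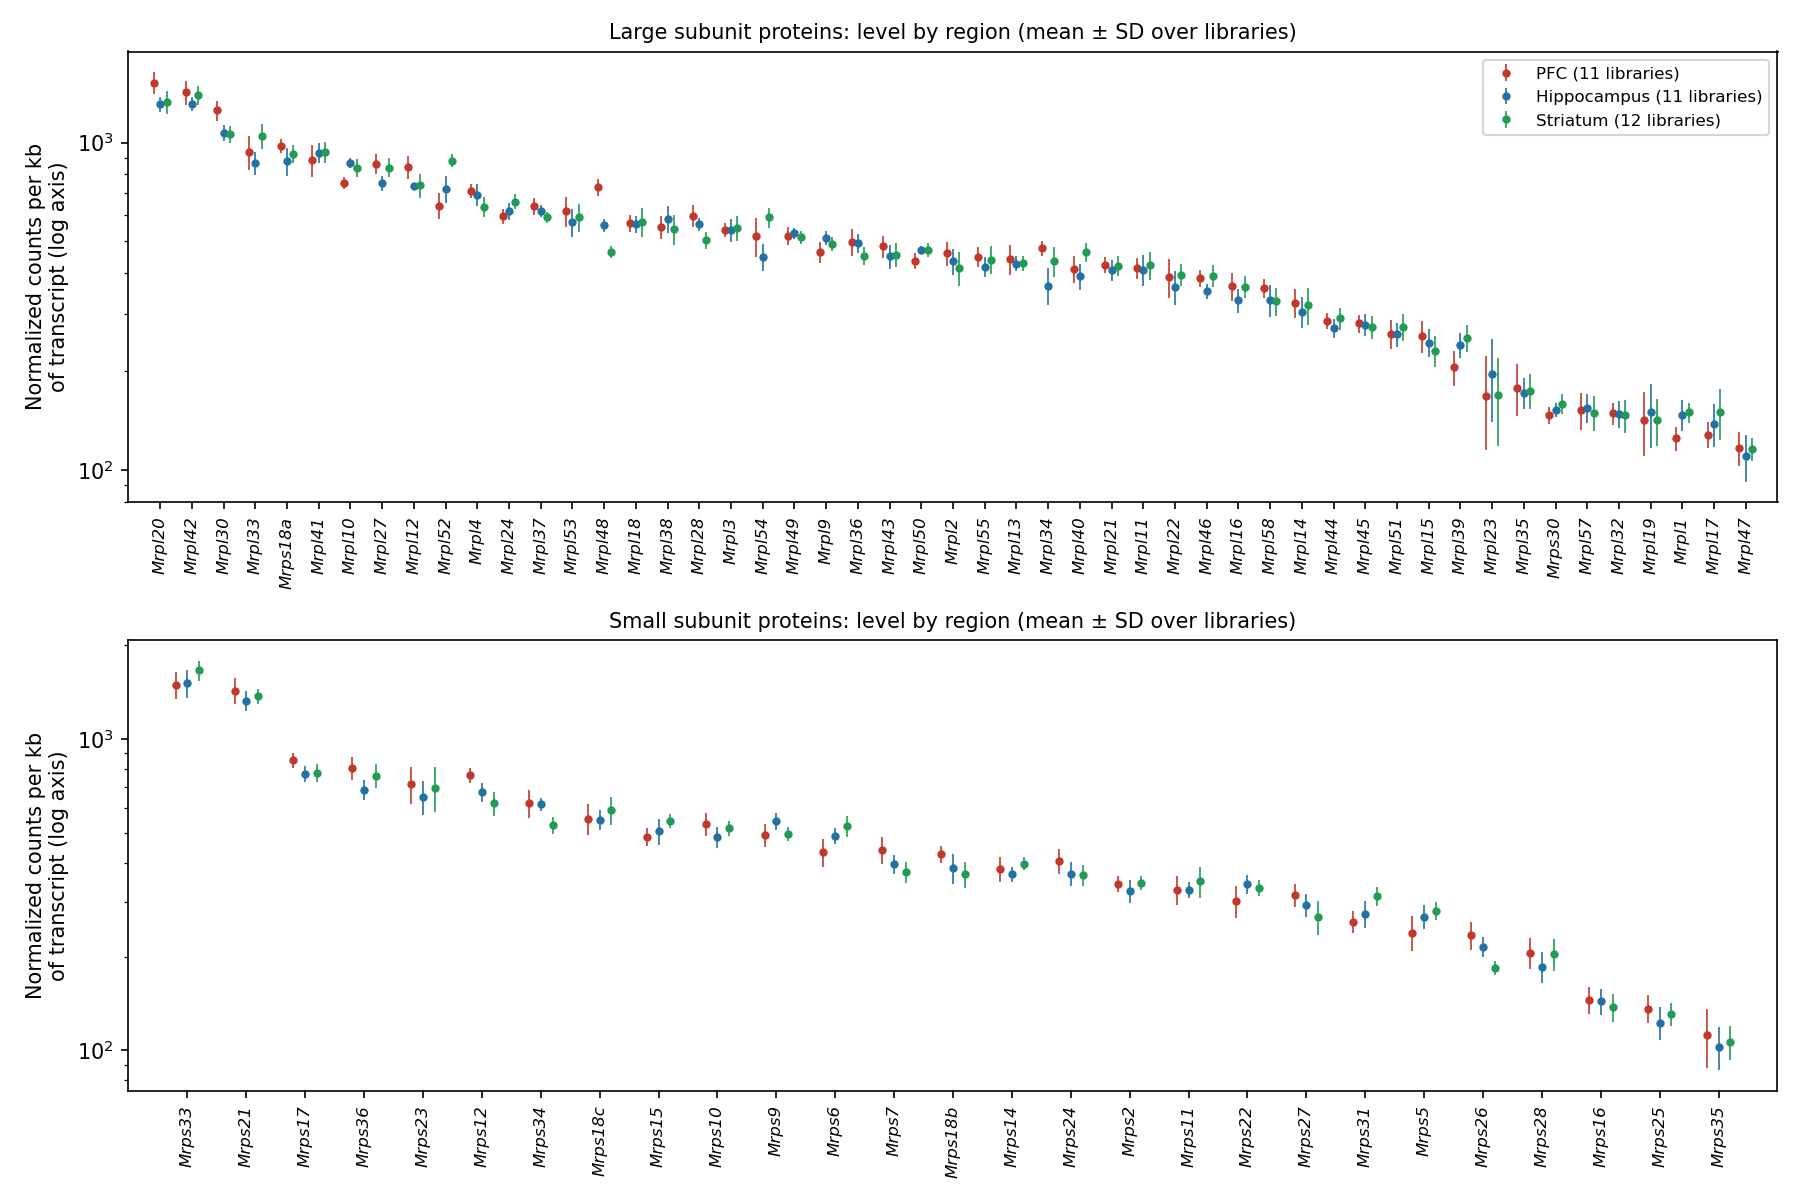
Normalized counts per kb of transcript (y axis, log scale) for each of the 78 genes (x axis, ordered by level), with the large subunit above and the small subunit below; points are means and bars SDs over the 11 PFC, 11 hippocampal and 12 striatal libraries. The 3 regions lie close together for most genes, while levels run from about 106.8 (Mrps35) to 1557 (Mrps33).

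Between 10 and 27 of the 78 genes passed the threshold between 2 regions, depending on the pair and the genotype. In each comparison the share was below that of all genes tested, and that gap itself was not tested. Between PFC and hippocampus, 14 of 78 passed (limma adjusted p under 0.05) in HT libraries, 10 higher and 4 lower in PFC, where 43.6% of all 17080 genes tested passed (21.1% higher, 22.5% lower). In WT libraries 18 of 78 passed, 12 higher and 6 lower in PFC, where 46.8% of all 17017 genes passed (22.9% higher, 23.9% lower). Between PFC and striatum, 27 passed in HT libraries, 16 higher and 11 lower in PFC (all genes 56%, 27.3% higher and 28.8% lower). In WT libraries 24 passed there, 12 in each direction (all genes 57%, 27.8% higher and 29.2% lower). For hippocampus against striatum, 10 passed in HT libraries, 4 higher and 6 lower in hippocampus (all genes 46.3%, 23.2% higher and 23.2% lower). In WT libraries 14 passed there, 4 higher and 10 lower (all genes 48%, 23.9% higher and 24.1% lower), and that count was 8 without striatal WT replicate 1, 9 without the libraries whose codes begin with 31 and 7 with those beginning with 35 alone. The shares of the members were 17.9%, 34.6% and 12.8% in HT libraries and 23.1%, 30.8% and 17.9% in WT libraries. Genes in the members' range of mean values passed at 43.3%, 56.3% and 46.6% in HT and 46.6%, 57% and 47.6% in WT libraries.

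The median size of the log2 difference in WT libraries was 0.109 for the members between PFC and hippocampus, against 0.221 for all genes, 0.0997 against 0.279 between PFC and striatum, and 0.0898 against 0.226 between hippocampus and striatum. None of the 78 reached a log2 difference of 1 in either genotype. 44 members passed in no WT comparison, 45 in no HT comparison, and 33 in neither. The matching shares of all genes were not computed, so these counts are not a trait shown for the members.

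Of the members past the threshold, 8 were shared in the same direction between PFC and hippocampus (57.1% of the HT and 44.4% of the WT list), 17 between PFC and striatum (63% and 70.8%) and 6 between hippocampus and striatum (60% and 42.9%). None passed in opposite directions. The same shares over all genes were not computed, so whether this sharing is high or low for the members was not tested. HT and WT libraries are separate except for the shared code. The direction of the list depends on the scaling. Where libraries were rescaled to equal totals, the median log2 difference of all genes was -0.108 and -0.0987 between PFC and hippocampus (HT and WT libraries), -0.163 and -0.153 between PFC and striatum, and -0.0636 and -0.061 between hippocampus and striatum. On that scale 1 member was higher and 10 lower in PFC than in hippocampus in HT libraries (all genes 15.7% higher and 32.7% lower), and 4 were higher and 16 lower in WT libraries (all genes 17.1% and 34.3%). At most 1 of the HT calls higher in PFC than in hippocampus given below therefore held. The 4 in WT libraries included Mrpl48, Mrpl34 and Mrpl27, so at most 1 other WT call in that direction held. Between PFC and striatum 4 were higher and 33 lower in HT libraries (all genes 18.3% and 42.4%), and 2 were higher and 31 lower in WT libraries (all genes 18.7% and 43%). Those 2 were Mrpl48 and Mrps26, and every other WT call in that direction given below was lost. At most 4 of the HT calls higher in PFC than in striatum given below held, and which ones was not followed. Between hippocampus and striatum 3 were higher and 13 lower in HT libraries (all genes 19% and 27.8%), and 3 were higher and 20 lower in WT libraries (all genes 19.8% and 29.4%).

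**Figure D2:**
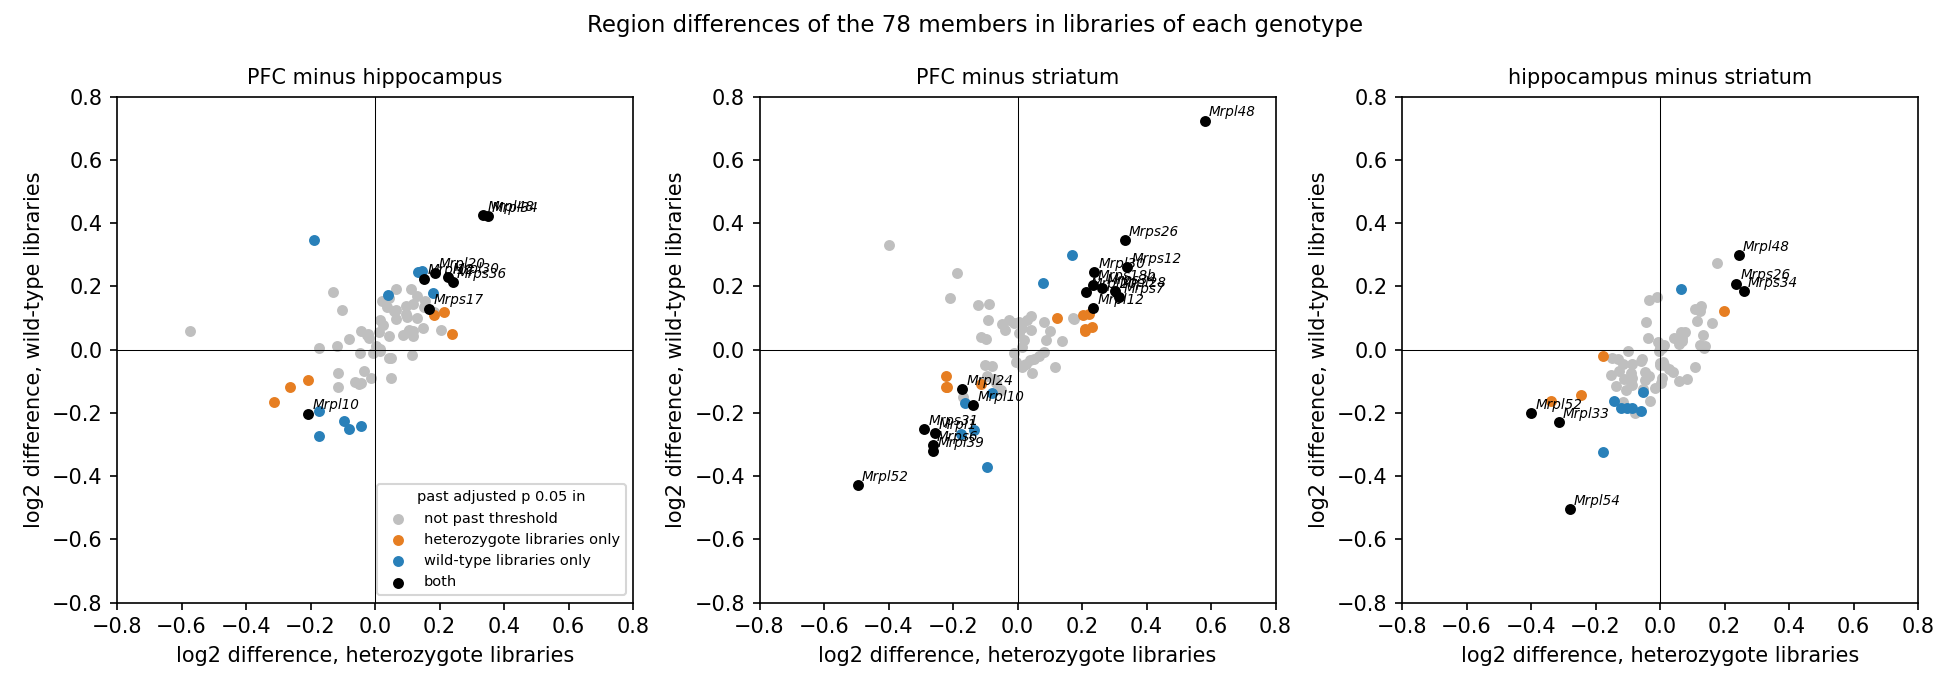
log2 difference of each of the 78 genes between 2 regions in HT libraries (x axis) and in WT libraries (y axis), 1 panel per pair of regions; black points passed the limma threshold in both genotypes, orange points in HT libraries, blue points in WT libraries and grey points in neither. Mrpl48 and Mrpl52 lie at the opposite ends of the comparison of PFC with striatum, at 0.58 and -0.50 in HT libraries.

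Mrpl48 (chr7:100545751-100608301, minus strand), a large-subunit protein of the central protuberance with no bacterial homologue, had the largest region difference of the 78. It stood at 1741, 1792, 1820.2, 1851 and 1952 in PFC HT libraries, against 1766 to 2054 (median 1985) in PFC WT libraries. In hippocampus it stood at 1402, 1406, 1441, 1485 and 1524 in hippocampal HT libraries, against 1318 to 1554 (median 1441) in hippocampal WT libraries. In striatum it ranged over 1154 to 1292 (median 1236) in striatal HT libraries, against 1123 to 1242 (median 1169) in striatal WT libraries. Every PFC library was above every hippocampal library, and every hippocampal library was above every striatal one, while HT and WT libraries overlapped in each region. The log2 difference between PFC and striatum was 0.58 ± 0.04 (SE, limma adjusted p = 8.73e-10) in HT libraries and 0.72 ± 0.05 (SE, limma adjusted p = 1.08e-11) in WT libraries. Between PFC and hippocampus it was 0.34 ± 0.04 (SE, limma adjusted p = 4.58e-06) in HT libraries and 0.43 ± 0.05 (SE, limma adjusted p = 9.83e-08) in WT libraries, and between hippocampus and striatum 0.24 ± 0.04 (SE, limma adjusted p = 8.69e-05) in HT libraries and 0.30 ± 0.05 (SE, limma adjusted p = 1.31e-05) in WT libraries. It was the 1 member to pass in all 3 comparisons in HT libraries, and 1 of 3 to do so in WT libraries, and the share of all genes that do so was not computed. 708 of the 8152 exonic bases of Mrpl48 (8.68%) overlap exons of Rab6a, a Golgi trafficking GTPase gene on the opposite strand, in the upstream exons of some Mrpl48 transcripts. Rab6a differed in the same directions, by 0.18, 0.69 and 0.52 in HT libraries (log2, PFC minus hippocampus, PFC minus striatum and hippocampus minus striatum), and by 0.17, 0.66 and 0.49 in WT libraries. The library kit is not stated to keep strand, so reads of the 2 genes in these bases cannot be told apart, and the part of Rab6a in the values of Mrpl48 was not tested.

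Mrpl52 (chr14:54426909-54429756, plus strand), a large-subunit protein with no bacterial homologue, ran the other way. It stood at 238.1, 267.3, 275.2, 279.5 and 312.9 in PFC HT libraries, against 265.8 to 333.5 (median 286.7) in PFC WT libraries. In hippocampus it stood at 266.3, 290.0, 291.3, 292.2 and 323.5 in hippocampal HT libraries, against 316.3 to 366.4 (median 338.8) in hippocampal WT libraries. In striatum it ranged over 373.1 to 410.2 (median 384.7) in striatal HT libraries, against 368.0 to 425.9 (median 389.7) in striatal WT libraries. Every striatal library was above every library of the other regions, whereas PFC and hippocampus overlapped. The log2 difference between PFC and striatum was -0.50 ± 0.07 (SE, limma adjusted p = 9.89e-06) in HT libraries and -0.43 ± 0.07 (SE, limma adjusted p = 7.45e-06) in WT libraries. Between hippocampus and striatum it was -0.40 ± 0.07 (SE, limma adjusted p = 0.000152) in HT libraries and -0.20 ± 0.07 (SE, limma adjusted p = 0.0145) in WT libraries. Between PFC and hippocampus it was -0.10 ± 0.08 (SE, limma adjusted p = 0.329) in HT libraries and -0.23 ± 0.07 (SE, limma adjusted p = 0.00672) in WT libraries, and the WT call was lost (adjusted p = 0.0896) where only libraries of the codes beginning with 35 were fitted.

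Mrpl54 (chr10:81264713-81266934, minus strand), another large-subunit protein with no bacterial homologue, had its highest mean in striatum and its lowest in hippocampus. It stood at 277.6, 302.1, 304.8, 315.5 and 402.2 in PFC HT libraries, against 241.6 to 367.7 (median 309.2) in PFC WT libraries. In hippocampus it stood at 253.3, 285.7, 294.0, 299.6 and 304.9 in hippocampal HT libraries, against 223.1 to 276.6 (median 259.0) in hippocampal WT libraries. In striatum it ranged over 327.8 to 392.3 (median 341.9) in striatal HT libraries, against 324.0 to 403.8 (median 365.7) in striatal WT libraries. Striatal and hippocampal libraries did not overlap, and PFC overlapped both. Between hippocampus and striatum the log2 difference was -0.28 ± 0.09 (SE, limma adjusted p = 0.013) in HT libraries and -0.50 ± 0.09 (SE, limma adjusted p = 4.57e-05) in WT libraries. Between PFC and hippocampus it was 0.14 ± 0.09 (SE, limma adjusted p = 0.217) in HT libraries and 0.25 ± 0.09 (SE, limma adjusted p = 0.0234) in WT libraries. That WT call was lost without any 1 of PFC WT replicate 1, PFC WT replicate 3 or hippocampal WT replicate 2 (adjusted p = 0.0711, 0.0512 and 0.0633), and with equal library totals (adjusted p = 0.13).

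Mrpl34, the counterpart of a short basic protein of the bacterial large subunit, had its lowest mean in hippocampus. It stood at 266.8, 272.4, 287.0, 289.0 and 317.7 in PFC HT libraries, against 268.5 to 302.5 (median 292.4) in PFC WT libraries. In hippocampus it stood at 174.0, 212.6, 239.9, 253.4 and 255.6 in hippocampal HT libraries, against 194.5 to 256.9 (median 212.3) in hippocampal WT libraries. In striatum it ranged over 227.3 to 293.8 (median 251.6) in striatal HT libraries, against 228.8 to 310.4 (median 280.1) in striatal WT libraries. All PFC libraries were above all hippocampal ones, and striatum overlapped both. The log2 difference between PFC and hippocampus was 0.35 ± 0.10 (SE, limma adjusted p = 0.0108) in HT libraries and 0.42 ± 0.08 (SE, limma adjusted p = 0.000266) in WT libraries. Between hippocampus and striatum it was -0.18 ± 0.10 (SE, limma adjusted p = 0.162) in HT libraries and -0.32 ± 0.08 (SE, limma adjusted p = 0.003) in WT libraries.

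Among the other large-subunit members, Mrpl30, Mrpl20 and Mrpl12 were higher in PFC than in hippocampus and striatum in both genotypes on the deposited scale. With equal library totals their WT calls over striatum were lost, and at most 1 of their HT calls over hippocampus held. At most 1 of their WT calls over hippocampus held as well. Their HT calls over striatum were not followed by name, and 4 members in all passed in that direction on that scale. Mrpl12, a stalk protein that binds translation factors, differed between PFC and striatum by 0.23 ± 0.05 (SE, limma adjusted p = 0.00126) in HT libraries and 0.13 ± 0.05 (SE, limma adjusted p = 0.0408) in WT libraries. Mrpl30 differed there by 0.24 ± 0.06 (SE, limma adjusted p = 0.00185) in HT libraries and 0.24 ± 0.06 (SE, limma adjusted p = 0.000691) in WT libraries, and its WT call was lost with equal library totals (adjusted p = 0.146). Mrpl27, a protein next to the peptidyl transferase centre, was higher in PFC than in hippocampus in WT libraries (0.25 ± 0.06 SE, limma adjusted p = 0.00146) and at 0.13 ± 0.06 (SE, limma adjusted p = 0.101) in HT libraries. Mrpl10, the base of the same stalk, was lower in PFC than in hippocampus, with a log2 difference of -0.21 ± 0.05 (SE, limma adjusted p = 0.0014) in HT libraries and -0.20 ± 0.05 (SE, limma adjusted p = 0.000832) in WT libraries. Its PFC and hippocampal libraries did not overlap in either genotype. Mrpl39, a relative of threonyl-tRNA synthetase, was lower in PFC than in striatum, with a log2 difference of -0.26 ± 0.08 (SE, limma adjusted p = 0.012) in HT libraries and -0.32 ± 0.07 (SE, limma adjusted p = 0.000692) in WT libraries. Mrpl1, at the side of the ribosome where spent tRNAs leave, differed there by -0.26 ± 0.07 (SE, limma adjusted p = 0.00248) in HT libraries and -0.27 ± 0.08 (SE, limma adjusted p = 0.00699) in WT libraries. Mrpl17 was lower in PFC than in striatum in WT libraries (-0.27 ± 0.07 SE, limma adjusted p = 0.00157) and stood at -0.17 ± 0.15 (SE, limma adjusted p = 0.332) in HT libraries. Mrpl33 was lower in hippocampus than in striatum, with a log2 difference of -0.31 ± 0.07 (SE, limma adjusted p = 0.00125) in HT libraries and -0.23 ± 0.09 (SE, limma adjusted p = 0.0384) in WT libraries, and the WT call was lost without any 1 of hippocampal WT replicate 1, 2 or 5 or striatal WT replicate 1 or 5 (adjusted p = 0.0591, 0.0567, 0.0895, 0.076 and 0.109).

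In the small subunit, Mrps26, a protein with no bacterial homologue, was lowest in striatum. It stood at 818.8, 983.5, 1016, 1048 and 1083 in PFC HT libraries, against 890.5 to 1233 (median 986.3) in PFC WT libraries. In hippocampus it stood at 785.9, 926.2, 931.3, 985.7 and 1003 in hippocampal HT libraries, against 844.9 to 976.8 (median 909.5) in hippocampal WT libraries. Striatal values covered 693.5 to 854.9 (median 796.1) in striatal HT libraries, against 772.2 to 802.5 (median 799.0) in striatal WT libraries. The WT libraries of striatum lay below all WT libraries of the other regions, and the HT libraries overlapped. Between PFC and striatum the log2 difference was 0.33 ± 0.08 (SE, limma adjusted p = 0.0011) in HT libraries and 0.35 ± 0.06 (SE, limma adjusted p = 3.37e-05) in WT libraries. Hippocampus minus striatum came to 0.24 ± 0.08 (SE, limma adjusted p = 0.0166) in HT libraries and 0.21 ± 0.06 (SE, limma adjusted p = 0.00605) in WT libraries.

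Mrps12, the homologue of the bacterial decoding-centre protein, had its highest mean in PFC and its lowest in striatum. It stood at 579.0, 584.4, 588.4, 599.3 and 653.2 in PFC HT libraries, against 578.3 to 673.6 (median 618.6) in PFC WT libraries. In hippocampus it stood at 465.2, 518.1, 538.5, 552.2 and 586.1 in hippocampal HT libraries, against 524.0 to 609.0 (median 538.7) in hippocampal WT libraries. Striatal values covered 451.1 to 557.0 (median 461.4) in striatal HT libraries, against 461.7 to 549.6 (median 533.4) in striatal WT libraries. PFC and striatal libraries did not overlap within either genotype, and hippocampal libraries overlapped both. The log2 difference between PFC and striatum was 0.34 ± 0.07 (SE, limma adjusted p = 0.000302) in HT libraries and 0.26 ± 0.06 (SE, limma adjusted p = 0.000565) in WT libraries, and the WT call was lost with equal library totals (adjusted p = 0.0791). The HT call was not followed on that scale, where 4 members in all were higher in PFC than in striatum. The neighbours in that order did not all differ: hippocampus minus striatum was 0.16 ± 0.07 (SE, limma adjusted p = 0.0607) in HT libraries and 0.08 ± 0.06 (SE, limma adjusted p = 0.259) in WT libraries.

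Mrps5, at the entry of the mRNA channel, was lower in PFC than in striatum in WT libraries. It stood at 963.6, 1081, 1106, 1196 and 1372 in PFC HT libraries, against 892.4 to 1179.9 (median 999.4) in PFC WT libraries. Striatal values covered 1094 to 1313 (median 1213) in striatal HT libraries, against 1250.2 to 1371 (median 1289) in striatal WT libraries. The WT libraries of the 2 regions did not overlap and the HT libraries did. On the log2 scale PFC minus striatum was -0.09 ± 0.08 (SE, limma adjusted p = 0.359) in HT libraries and -0.37 ± 0.06 (SE, limma adjusted p = 1.08e-05) in WT libraries. Of the rest, Mrps6 was lower in PFC than in striatum, with a log2 difference of -0.26 ± 0.08 (SE, limma adjusted p = 0.0118) in HT libraries and -0.30 ± 0.07 (SE, limma adjusted p = 0.00073) in WT libraries. Mrps6 shares 159 of its 1533 exonic bases (10.4%) with Slc5a3, a myo-inositol transporter gene on the same strand, which differed by -0.83 in HT and -0.83 in WT libraries in the same comparison. The part of Slc5a3 in the values of Mrps6 was not tested. Mrps9 was higher in hippocampus than in striatum in WT libraries (0.19 ± 0.06 SE, limma adjusted p = 0.0082) and stood at 0.06 ± 0.06 (SE, limma adjusted p = 0.44) in HT libraries. Mrps27, a pentatricopeptide-repeat protein, was higher in PFC than in striatum in WT libraries (0.30 ± 0.08 SE, limma adjusted p = 0.00282, adjusted p = 0.0825 with equal library totals) and stood at 0.17 ± 0.09 (SE, limma adjusted p = 0.129) in HT libraries. Mrps34 was higher in hippocampus than in striatum, with a log2 difference of 0.26 ± 0.06 (SE, limma adjusted p = 0.00273) in HT libraries and 0.19 ± 0.07 (SE, limma adjusted p = 0.0379) in WT libraries. Its WT call was lost on leaving out any 1 of 7 libraries, hippocampal WT replicates 1, 3, 4 and 6 and striatal WT replicates 1, 3 and 6 (log2 difference 0.168 to 0.189, adjusted p = 0.0508 to 0.08), and with equal library totals (adjusted p = 0.141). Mrps35 was higher in PFC than in hippocampus in WT libraries (0.35 ± 0.11 SE, limma adjusted p = 0.0153, adjusted p = 0.0682 with equal library totals) and stood at -0.19 ± 0.13 (SE, limma adjusted p = 0.24) in HT libraries. Mrps34 shares 63.4% of its exonic bases with Mapk8ip3 on the opposite strand, which differed by 0.19 in HT and 0.21 in WT libraries in the same comparison. It shares 763 of its 2064 exonic bases with Nme3 on the same strand, which was at -0.30 in HT (limma adjusted p = 0.0285) and 0.10 in WT libraries (limma adjusted p = 0.496). The part of either in the values of Mrps34 was not tested.

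**Figure D3:**
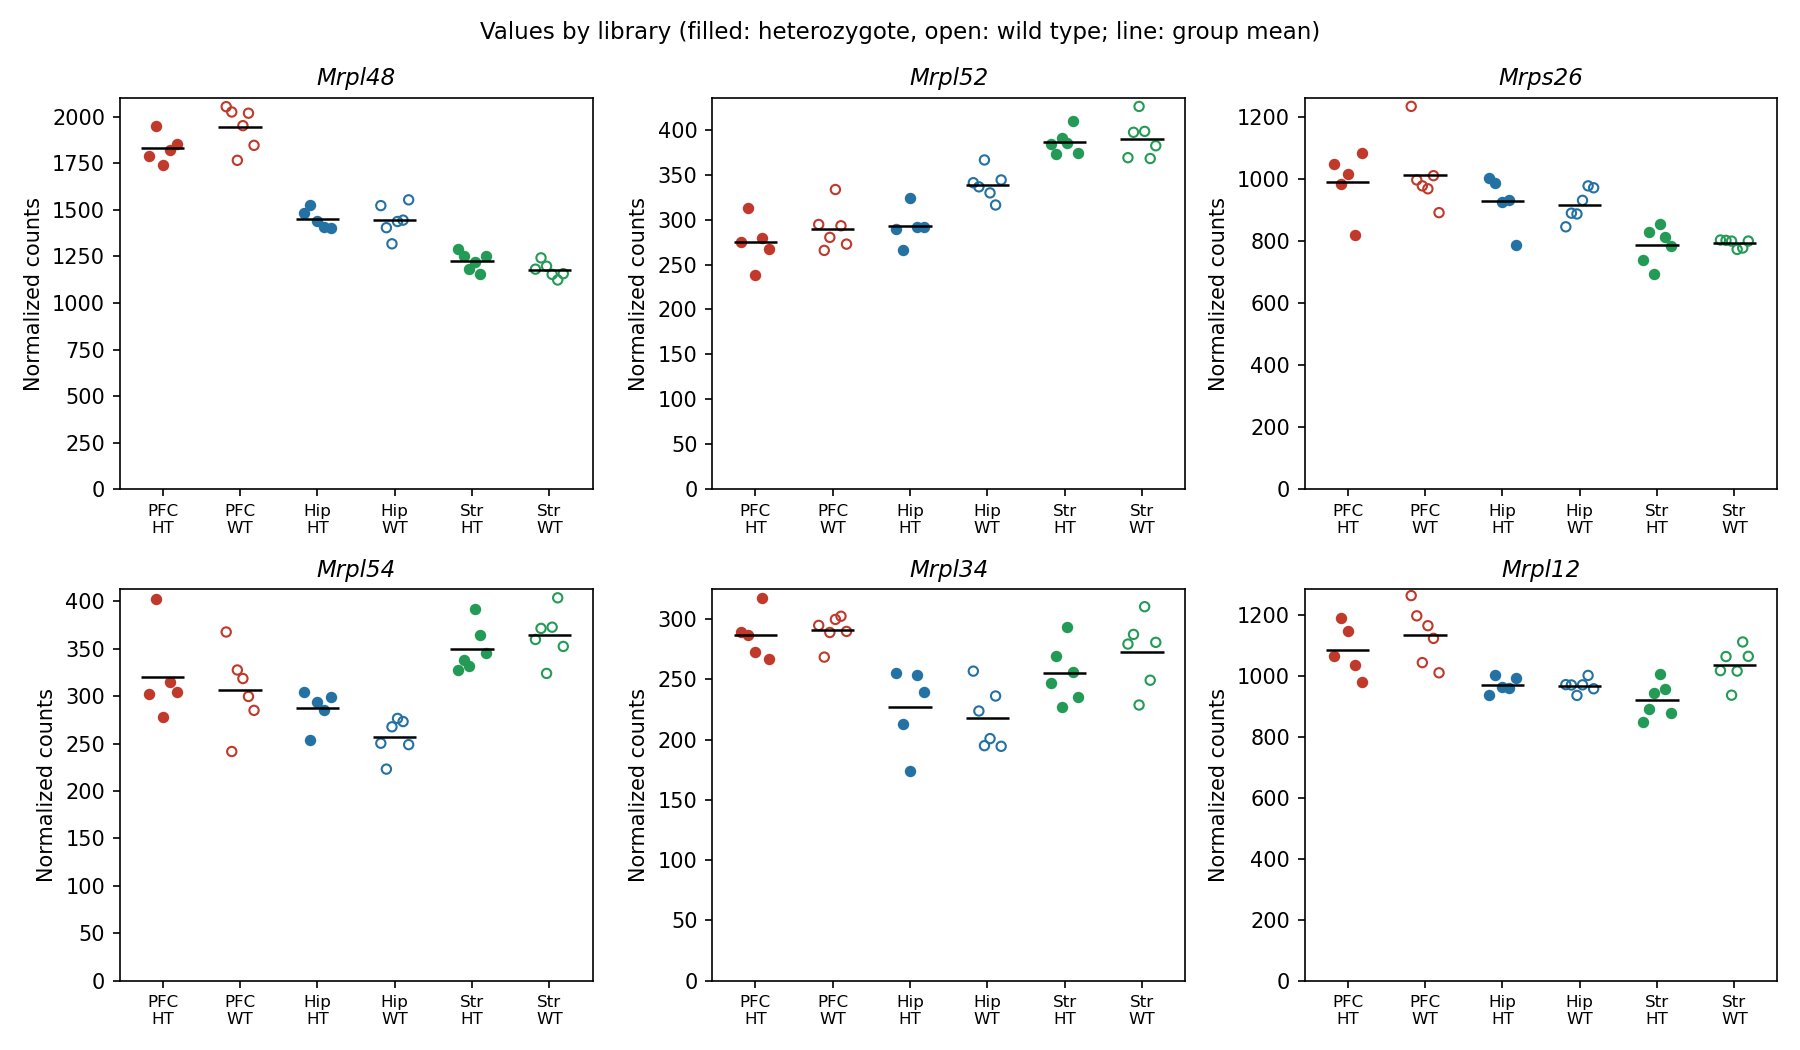
Normalized counts (y axis, from 0) of 6 members in each library, by region and genotype (x axis); filled points are HT and open points WT libraries, and lines are group means. Mrpl48 is highest in PFC and Mrpl52 in striatum, each without overlap between PFC and striatum, while HT and WT libraries of a region overlap.

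Of the paralogues Mrps18a, Mrps18b and Mrps18c, Mrps18a sits in the large and the others in the small subunit. Mrps18a averaged 735.4 ± 36.8 in PFC, 659.9 ± 64.9 in hippocampus and 694.8 ± 44.4 in striatum (SD, n = 11, 11 and 12 libraries). It passed in 1 region comparison in HT libraries and in none in WT libraries. Mrps18b averaged 401.2 ± 26.1, 361.3 ± 39.1 and 345.5 ± 33.9, and was higher in PFC than in striatum, with a log2 difference of 0.24 ± 0.08 (SE, limma adjusted p = 0.0184) in HT libraries and 0.21 ± 0.08 (SE, limma adjusted p = 0.0398) in WT libraries. That WT call was lost with equal library totals, where at most 4 HT calls of any member higher in PFC than in striatum held. Mrps18c averaged 354.8 ± 39.9, 351.4 ± 26.2 and 377.1 ± 37.7 and passed in no region comparison. Mrps36 averaged 512.7 ± 43.4, 437.5 ± 33.6 and 485.4 ± 41.2. It was higher in PFC than in hippocampus, with a log2 difference of 0.24 ± 0.08 (SE, limma adjusted p = 0.0235) in HT libraries and 0.21 ± 0.07 (SE, limma adjusted p = 0.0105) in WT libraries. With equal library totals at most 1 HT call of any member in that direction held. The same was true of WT calls other than those of Mrpl48, Mrpl34 and Mrpl27, of which at most 1 held. Mrps30 averaged 487.9 ± 29.4, 505.8 ± 25.4 and 528.0 ± 37.3, and Mrpl58, a peptidyl-tRNA hydrolase built into the large subunit that rescues stalled ribosomes, averaged 702.4 ± 48.5, 646.7 ± 72.7 and 640.2 ± 60.8. Mrps30 passed in WT libraries between PFC and striatum (-0.14 ± 0.06 SE, limma adjusted p = 0.0403) and Mrpl58 in HT libraries (0.21 ± 0.08 SE, limma adjusted p = 0.0426). The HT call of Mrpl58 falls under the same limit of at most 4 calls with equal library totals.

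Promoters are shown because they carry the motifs counted over the members. RefSeq promoter windows of 300 bases on GRCm38.p6 were at hand for 69 of the 78. They were searched on both strands for 5 motifs. The ETS core CGGAAG, the element read by GABP, was in a window of 39 of 69 members (56.5%), against 31.3% of 11941 coding genes. The YY1 core AAGATGG was in 13 (18.8%, against 7.77%), and the NRF1 core GCGCATGC in 8 (11.6%, against 5.42%). CCAAT was in 27 (39.1%, against 42.5%) and TATAAA in 5 (7.25%, against 9.31%). A match is a description of the letters, not a bound site. The windows of 4 members follow, 5′ to 3′ on the gene's strand, with matches of the ETS, YY1 and NRF1 cores, in either orientation, in capitals. Mrpl48 (chr7:100583081-100583380, minus strand) and Mrpl52 (chr14:54426659-54426958, plus strand) are the members with opposite region profiles, and of the 4 RefSeq windows of Mrpl48 the one printed is the 1 with an ETS match. Mrpl10 (chr11:97041332-97041631, plus strand) holds an NRF1 core and an ETS core. Mrps11 (chr7:78782881-78783180, plus strand) faces Mrpl46, another member, on the opposite strand.
Mrpl48: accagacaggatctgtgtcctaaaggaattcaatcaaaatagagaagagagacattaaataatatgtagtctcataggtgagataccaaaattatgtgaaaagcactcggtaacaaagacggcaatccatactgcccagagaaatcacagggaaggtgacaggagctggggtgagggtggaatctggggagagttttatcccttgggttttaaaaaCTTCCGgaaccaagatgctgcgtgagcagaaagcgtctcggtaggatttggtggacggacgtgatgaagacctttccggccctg
Mrpl52: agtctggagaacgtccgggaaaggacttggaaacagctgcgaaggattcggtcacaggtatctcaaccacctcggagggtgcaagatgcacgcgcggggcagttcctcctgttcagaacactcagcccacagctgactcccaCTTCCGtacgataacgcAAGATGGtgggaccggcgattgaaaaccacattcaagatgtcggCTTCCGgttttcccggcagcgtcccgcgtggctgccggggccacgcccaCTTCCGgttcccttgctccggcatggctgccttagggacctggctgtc
Mrpl10: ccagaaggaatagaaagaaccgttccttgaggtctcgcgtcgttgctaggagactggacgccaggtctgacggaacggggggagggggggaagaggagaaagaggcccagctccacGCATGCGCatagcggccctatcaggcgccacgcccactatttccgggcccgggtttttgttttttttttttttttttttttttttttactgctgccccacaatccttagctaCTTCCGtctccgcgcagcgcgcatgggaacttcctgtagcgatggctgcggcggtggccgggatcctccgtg
Mrps11: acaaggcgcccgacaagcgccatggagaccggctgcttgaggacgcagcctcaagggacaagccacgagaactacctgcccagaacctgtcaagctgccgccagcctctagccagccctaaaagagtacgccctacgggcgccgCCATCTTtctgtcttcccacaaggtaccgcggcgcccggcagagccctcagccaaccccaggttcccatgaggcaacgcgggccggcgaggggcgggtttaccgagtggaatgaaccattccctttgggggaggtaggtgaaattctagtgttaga
The printed window of Mrpl48, chosen for its match, holds the ETS core 1 time, and that of Mrpl52 holds it 3 times. The other windows of Mrpl48 lack it, and a tie between motifs and region profiles was not tested. Mrpl52 and Mrps11 also hold the YY1 core.

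A head-to-head neighbour, a coding gene on the opposite strand that starts within 1000 bases upstream or overlaps by up to 500, was annotated for 26 of the 78 (33.3%), against 1952 of 15399 coding genes of the table (12.7%). Mrps11 and Mrpl46 are the one pair in which both are members. Mrps12 pairs with Sars2, the mitochondrial seryl-tRNA synthetase, Mrpl36 with Ndufs6, a subunit of respiratory complex I, and Mrpl32 with Psma2, a proteasome subunit. Exons of 24 members overlap those of another gene of the table, 20 on the opposite and 6 on the same strand, 14 of them over at least 10% of the member's exonic bases. The values of those members are uncertain to that extent.

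None of the 78 genes passed the threshold between HT and WT libraries. In PFC 0 of 78 passed (all genes 0% of 16667), in hippocampus 0 (all genes 0% of 16820), in striatum 0 (all genes 0% of 17054), and in the average over regions 0 (all genes 0.0938%, 16 of 17051). At an unadjusted p under 0.05 there were 5, 5, 6 and 15 members (6.41%, 6.41%, 7.69% and 19.2%), against 5%, 6.81%, 5.89% and 9.37% of all genes. Of the 15 in the average 13 were lower in HT libraries, as were 903 of the 1598 among all genes. Their log2 differences in the average ran from -0.15 to 0.14. The smallest limma adjusted p of any member was 0.763, 0.718, 0.715 and 0.313. The members' median log2 difference, HT minus WT, was -0.0224 in PFC, -0.00301 in hippocampus, -0.0277 in striatum and -0.0169 in the average, where the medians of all genes were -0.00307, -0.0014, -0.00376 and -0.00284. 28, 37, 29 and 29 members were above 0 (35.9%, 47.4%, 37.2% and 37.2%), against 48.7%, 49.4%, 48.4% and 48.1% of all genes. With 1 library left out at a time, the members' medians in PFC and hippocampus fell on either side of 0. The intervals bound what these libraries could have shown. The 95% interval lay within a log2 difference of 0.5 in either direction for 75, 76, 77 and 77 of the 78, and within 1 for all 78. Among genes in the members' range of mean values it lay within 0.5 for 7963 of 8591, 7879 of 8601, 7941 of 8608 and 8419 of 8610. It lay within 1 for 8519, 8488, 8490 and 8572 of them.

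**Figure D4:**
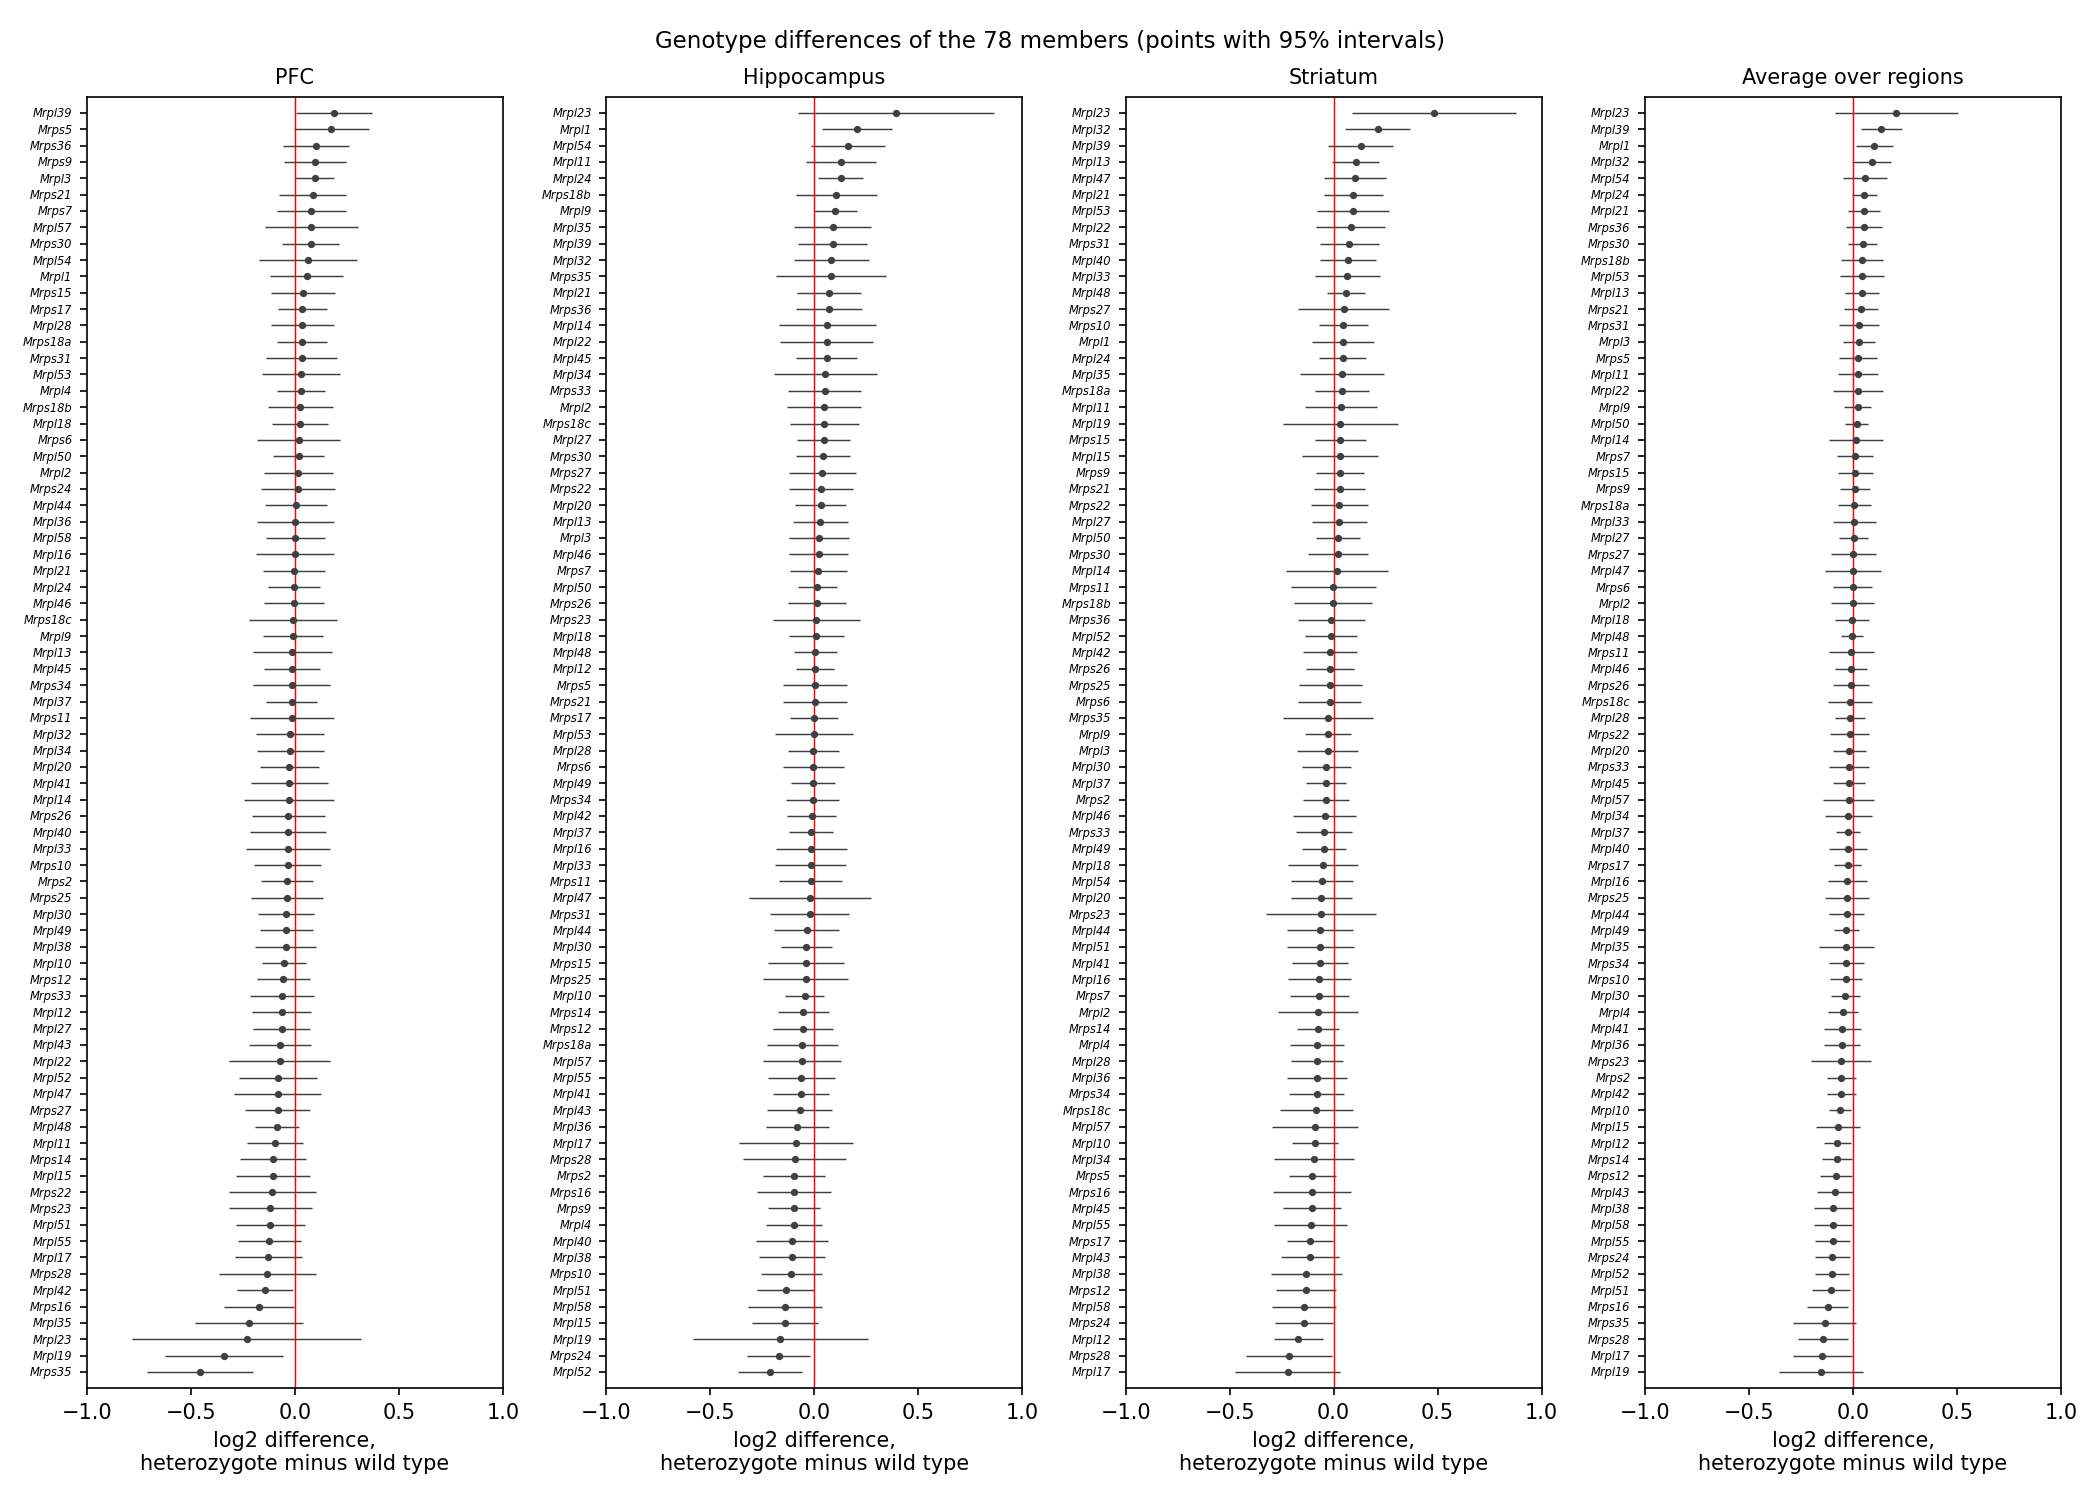
log2 difference between HT and WT libraries (x axis, points with 95% intervals, limma) of each of the 78 genes (y axis, ordered by difference) in PFC, hippocampus, striatum and the average over regions. Points lie within about 0.5 of 0 on either side, none passes the adjusted threshold, and Mrpl23 has the widest intervals.

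The members nearest to the threshold are given with their values. In PFC these were Mrps35, Mrpl19 and Mrpl42 among the lower and Mrpl39, Mrpl3 and Mrps5 among the higher. Mrps35, a small-subunit protein with no bacterial homologue (chr6:147042764-147073991, plus strand), stood at 326.5, 328.7, 351.3, 416.8 and 518.6 in PFC HT libraries, against 435.0 to 599.4 (median 536.2) in PFC WT libraries. All 5 HT libraries lay below the WT mean, with 1 of them inside the WT range. The log2 difference was -0.46 (95% interval -0.71 to -0.20, limma adjusted p = 0.763), against 0.08 in hippocampus and -0.03 in striatum. Mrpl39 stood at 414.2, 476.1, 499.0, 548.3 and 599.7 in PFC HT libraries, against 417.1 to 479.9 (median 439.9) in PFC WT libraries, a log2 difference of 0.19 (95% interval 0.006 to 0.37, limma adjusted p = 0.977) with the ranges overlapping. The differences of Mrpl19, Mrpl42, Mrpl3 and Mrps5 were -0.34, -0.15, 0.09 and 0.18.

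In hippocampus Mrpl52 stood lowest by p-value, with 4 of its 5 HT libraries under the lowest WT library (values above). Its log2 difference was -0.21 (95% interval -0.37 to -0.06, limma adjusted p = 0.718). Mrps24 had 316.9, 335.4, 335.7, 341.5 and 391.8 in hippocampal HT libraries, against 359.2 to 400.8 (median 398.1) in hippocampal WT libraries, with overlap from 1 HT library and a log2 difference of -0.17 (95% interval -0.32 to -0.02, limma adjusted p = 0.727). Mrpl1 had 390.4, 450.1, 452.0, 467.9 and 499.0 in hippocampal HT libraries, against 347.6 to 433.5 (median 385.0) in hippocampal WT libraries, with overlapping ranges and a log2 difference of 0.20 (95% interval 0.04 to 0.37, limma adjusted p = 0.719). Mrpl51, Mrpl24 and Mrpl9 had log2 differences of -0.14, 0.13 and 0.10.

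In striatum Mrpl12 (chr11:120484613-120489065, plus strand) had 846.9 to 1004 (median 917.0) in striatal HT libraries, against 936.4 to 1111 (median 1040.0) in striatal WT libraries. All 6 HT libraries lay under the WT mean and the ranges overlapped. Its log2 difference was -0.17 (95% interval -0.29 to -0.05, limma adjusted p = 0.715). Mrpl32, whose maturation by a mitochondrial protease is a step of ribosome assembly, had 409.1 to 558.2 (median 467.8) in striatal HT libraries, against 389.5 to 430.0 (median 406.6) in striatal WT libraries, a log2 difference of 0.21 (95% interval 0.06 to 0.37, limma adjusted p = 0.753) with overlapping ranges. Mrps28 had 134.8 to 173.3 (median 138.9) in striatal HT libraries, against 155.2 to 188.3 (median 168.6) in striatal WT libraries, also overlapping, and a log2 difference of -0.21 (95% interval -0.42 to -0.006, limma adjusted p = 0.837). Mrps17, Mrpl13 and Mrpl23 had log2 differences of -0.11, 0.11 and 0.48.

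In the average over regions the smallest p-values were those of Mrpl39 at 0.14 (95% interval 0.04 to 0.23, limma adjusted p = 0.313), Mrpl1 at 0.10 and Mrpl32 at 0.09 among the higher. Among the lower they were Mrpl52 at -0.10, Mrps16 at -0.12 and Mrpl10 at -0.06. No member passed the test of whether its HT and WT difference differed between regions (limma, 0 of 78 in each pair of regions, all genes 0%). At an unadjusted p under 0.05 there were 2 members for PFC against hippocampus, 5 for PFC against striatum and 2 for hippocampus against striatum, where 3.76%, 3.59% and 3.69% of all genes fell. The smallest p-values were those of Mrps35 and Mrps9 for PFC against hippocampus (-0.54 and 0.20, log2), Mrps5 and Mrps35 for PFC against striatum (0.28 and -0.43), and Mrpl12 and Mrpl52 for hippocampus against striatum (0.18 and -0.20).

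The median within-group SD of log2 values was 0.118 for the 78, 0.144 for the 8610 genes in the same range of mean values and 0.160 for all 17051 genes. Mrpl10 was the least variable, with an SD of 0.06, followed by Mrpl48 at 0.07. The mean log2 value of the 78 genes in a library ran from 9.06 to 9.24 over the 34 libraries. As a share of all normalized counts they made up 0.162% to 0.192%.

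Mrpl23, a protein at the exit of the peptide tunnel, was the most variable, with a within-group SD of 0.43. It ran from 54.5 to 198.4 normalized counts over the 34 libraries, a 3.64-fold span. The table also lists Mrpl23-ps1, a processed pseudogene of Mrpl23, at 262.1 to 419.7. Their sum ran from 391.0 to 522.8, a 1.34-fold span with a within-group SD of 0.0934. In the sum, chosen after the values were seen, the log2 differences, HT minus WT, were -0.06 in PFC, -0.01 in hippocampus and 0.01 in striatum (limma adjusted p = 0.979, 0.991 and 0.982), where Mrpl23 alone was at -0.23, 0.39 and 0.48. Reads that match both sequences can be assigned to either, so the value of Mrpl23 alone is uncertain. Next in SD were Mrpl19 at 0.29, Mrps35 at 0.22, and Mrpl17 and Mrps23 at 0.21. Mrpl19 shares 36.0% of its exonic bases with Gcfc2 on the opposite strand.

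**Figure D5:**
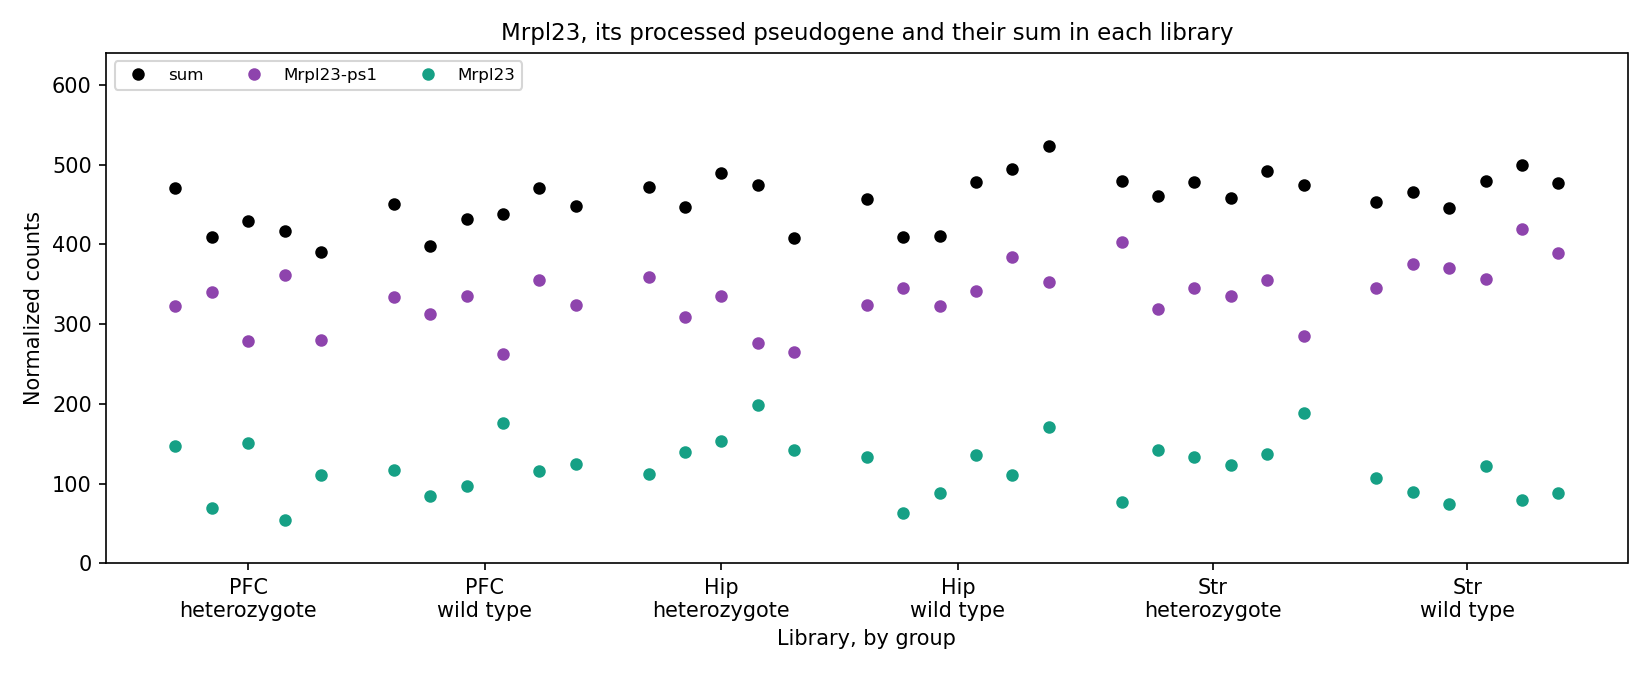
Normalized counts (y axis) of Mrpl23, its processed pseudogene Mrpl23-ps1 and their sum in each of the 34 libraries (x axis, by region with HT left of WT). Mrpl23 spans 54.5 to 198.4, while the sum stays between 391.0 and 522.8.

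Of 109 other genes of mitochondrial translation and mitochondria, in 8 lists, 0 passed between HT and WT libraries in any of the 4 comparisons, while members of each list passed between regions. These lists were fitted on the deposited scale only, so the effect of equal library totals on their calls was not tested. Among 15 mitochondrially encoded mRNAs and rRNAs, the ribosomes' own RNA and their templates, 10 were higher in PFC than in hippocampus in HT libraries (all genes 21.1%) and 10 in WT libraries (all genes 22.9%), with none lower. Between PFC and striatum 7 were higher in HT (all genes 27.3%) and 7 in WT libraries (all genes 27.8%), with none lower. In hippocampus 7 were lower than in striatum in HT (all genes 23.2%) and 6 in WT libraries (all genes 24.1%), with none higher. The large-subunit and small-subunit rRNAs differed between PFC and hippocampus in WT libraries by 0.18 (limma adjusted p = 0.0241) for mt-Rnr2 and 0.29 (limma adjusted p = 6.39e-05) for mt-Rnr1. The 5 further ribosomal subunits with other names gave 1 call in each genotype. Dap3, a GTP-binding protein of the small subunit, was higher in PFC than in striatum in HT libraries, 0.20 (limma adjusted p = 0.0038), and higher in hippocampus than in striatum in WT libraries, 0.19 (limma adjusted p = 0.00289).

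The other lists are given for PFC against striatum, where 27.3% of all genes were higher and 28.8% lower in HT libraries, and 27.8% higher and 29.2% lower in WT libraries. Of 13 translation factors, 1 was higher and 1 lower in HT libraries, and 1 higher and 2 lower in WT libraries. Gfm2, which recycles the ribosome, stood at 0.21 (limma adjusted p = 0.0043) in HT and 0.31 (limma adjusted p = 0.000117) in WT libraries, and the release factor gene Mtrf1l at -0.75 (limma adjusted p = 0.00331) and -0.49 (limma adjusted p = 0.0202). Of 17 mitochondrial aminoacyl-tRNA synthetases 5 were higher and 2 lower in HT libraries, and 3 higher and 2 lower in WT libraries. Aars2, which loads alanine, stood at 0.51 (limma adjusted p = 2.67e-06) in HT and 0.56 (limma adjusted p = 3.8e-08) in WT libraries, and Rars2, which loads arginine, at -0.32 (limma adjusted p = 0.00156) and -0.39 (limma adjusted p = 0.000324).

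Of 21 genes of ribosome assembly and rRNA modification 2 were higher and 4 lower in HT libraries, and 2 higher and 3 lower in WT libraries. The rRNA methyltransferase gene Mrm1 stood at 0.73 (limma adjusted p = 0.00181) in HT and 0.67 (limma adjusted p = 0.000592) in WT libraries, and Mterf3 at -0.38 (limma adjusted p = 0.00788) and -0.44 (limma adjusted p = 0.000807). Of 11 genes of mitochondrial transcription and RNA stability 2 were higher and 3 lower in HT libraries, and 1 higher and 2 lower in WT libraries, with Fastk at 0.37 (limma adjusted p = 6.24e-06) in HT and 0.42 (limma adjusted p = 1.4e-07) in WT libraries. Of 10 nuclear regulators 2 were higher and 3 lower in HT libraries, and 1 higher and 4 lower in WT libraries. Gabpa and Gabpb2 encode subunits of the ETS factor GABP. Gabpa stood at -0.33 (limma adjusted p = 7.26e-06) in HT and -0.34 (limma adjusted p = 4.88e-05) in WT libraries, and Gabpb2 at -0.66 (limma adjusted p = 3.48e-08) and -0.51 (limma adjusted p = 1.98e-06). Of 17 genes of mitochondrial membranes and matrix 4 were higher and 7 lower in HT libraries, and 4 higher and 8 lower in WT libraries, with Hspd1, the matrix chaperonin, at -0.31 (limma adjusted p = 6.22e-06) in HT and -0.33 (limma adjusted p = 1.62e-06) in WT libraries.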

How the data were processed

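RNA of prefrontal cortex, hippocampus and striatum was sequenced from libraries made with a TruSeq kit whose strandedness is not stated, per the labels. The deposited values, which the authors name DESeq counts, are a normalized signal: they are not whole, and whole reads could not be recovered from them, so no count model was used. The submitters' processing notes list, with no role or order, the build GRCm38 and the tools DESeq2 1.26.0, Salmon 1.1.0 and R 3.6.2. Normalized totals were 25786041 to 29798959 per library, and the number of reads behind them is not known.

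From there, genes with a mean of at least 10 were fitted as log2(value + 1) with limma 3.58.1 in R 4.3.3 (trend and robust, 2-sided), and p-values were adjusted by the Benjamini-Hochberg method across the whole table, with a threshold of 0.05. Differences on this scale understate changes of low genes. Genotype was compared within each region. Regions were compared within each genotype, and genotype was averaged over regions, with the column code as random block (correlation 0.0241 in WT, 0.0503 in HT and 0.0429 in all libraries). The code found under both genotypes was divided by genotype. Levels per kb used the mean length of basic coding transcripts of GENCODE M21. Promoter windows came from RefSeq on GRCm38.p6. The fit was tested on simulated data. The members and lists were chosen with earlier results of these data known. Named members were the 3 with the smallest p in each direction per genotype comparison, the 2 per interaction, up to 5 past the threshold in each direction per WT region comparison, the 5 highest and lowest per kb, and those with special roles. The others named were past the threshold in both genotypes or had overlapping exons, and were chosen after their values were seen. Alternatives were other pseudocounts, filters, scalings, variance settings, code subsets, blocks, and each library left out.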

Additional observations from a re-analysis of the deposited data

Results flagged for a closer look

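Among 44 named members and the member mean, 270 groups of 5 or 6 libraries were examined, and in 16 a single library lay far from the others by Dixon's criterion. Chance alone gives this in about 1 in 20 groups, or 13.5 of 270. In HT libraries, Mrpl30 was high in PFC replicate 4, at 1053 normalized counts with the nearest other library at 901.2, and Mrps12 in PFC replicate 5, at 653.2 with the nearest at 599.3. In hippocampus Mrpl13 was high in HT replicate 4, at 599.3 (nearest 522.4), and Mrpl58 in HT replicate 5, at 770.4 (nearest 601.5). In striatum Mrpl17 was high in HT replicate 5, at 862.9 (nearest 583.9), Mrps12 was high in HT replicate 4, at 557.0 (nearest 466.3), and Mrpl9 was low in HT replicate 2, at 693.7 (nearest 798.9).

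In WT libraries of PFC, Mrps26 and Mrps33 were high in replicate 1, at 1233 (nearest 1010.0) and 1427 (nearest 1181), and Mrps25 was high in replicate 2, at 1023 (nearest 824.7). In hippocampus Mrps17 was high in WT replicate 1, at 1482 (nearest 1312), Mrpl42 in WT replicate 3, at 855.9 (nearest 777.9), and Mrps16 in WT replicate 5, at 444.5 (nearest 376.5). Mrpl33 was low in the same hippocampal WT replicate 5, at 375.1 (nearest 412.9). In striatum Mrps36 was high in WT replicate 1, at 566.8 (nearest 489.6), and Mrps21 was low in WT replicate 3, at 540.8 (nearest 603.5).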

How the results depend on the processing

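The count of members between HT and WT libraries was 0 under every alternative run, in each region, in the average and in the tests between regions. With 1 library left out, the members' median HT minus WT difference ran from -0.0399 to 0.00673 in PFC and -0.0211 to 0.00982 in hippocampus. It ran from -0.0436 to -0.0185 in striatum and from -0.0217 to -0.00735 in the average. With equal library totals the hippocampal median was 0.00654. No called WT region difference of a named member changed sign, and HT region differences were not followed member by member. The members' median region difference did change sign: with equal library totals it was -0.053, -0.141 and -0.0764 in HT libraries and -0.0319, -0.105 and -0.0986 in WT libraries (log2, PFC minus hippocampus, PFC minus striatum and hippocampus minus striatum), where the deposited scale gave 0.0432, 0.00821 and -0.0235 in HT and 0.0575, 0.0371 and -0.0457 in WT libraries. The medians with PFC are thus positive on 1 scale and negative on the other. Relative to the median of all genes, the medians with equal totals were 0.055, 0.022 and -0.0128 in HT and 0.0668, 0.048 and -0.0376 in WT libraries. Between hippocampus and striatum equal totals gave 16 members in HT and 23 in WT libraries, where 10 and 14 passed. The WT count of 14 was 9 without the libraries of codes beginning with 31, 7 with the codes beginning with 35 alone, and 8 without striatal WT replicate 1. Leaving out 1 library at a time gave 12 to 17, 23 to 28 and 9 to 11 members in HT and 16 to 20, 17 to 24 and 8 to 15 in WT libraries. Same-numbered HT and WT libraries had residual correlations of -0.0983 to 0.101. Libraries of 1 genotype that share a column code had -0.0327 to 0.296 (median 0.0538, 30 pairs). Low values therefore cannot show whether replicate numbers pair the samples. With the replicate number as a block 0 members passed in each region. Region and average fits were blocked on the column code, which is not the replicate number. Without the code block the counts were 14, 26 and 10 in HT, 17, 24 and 14 in WT libraries, and 0 in the average. Of the named members' differences, 1694 kept their side of the threshold and 31 lost it over all settings, and the cause was not tested. The 1694 include differences between genotypes and the tests between regions, which were never called and had no call to lose. All 31 losses were WT region differences. Among these, Mrpl17 (hippocampus minus striatum) stood at adjusted p = 0.0541 without hippocampal WT replicate 3 and Mrps9 at 0.0561 with the codes beginning with 35 alone (limma). Depth is not known in reads, because only normalized values were used.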
